A study of Mus musculus with 10 samples.

Results

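The transcripts described here encode 9 proteins of mitochondrial shape and quality control: the fusion genes Mfn1, Mfn2 and Opa1, the fission genes Dnm1l, Fis1 and Mff, and the mitophagy genes Pink1, Fundc1 and Bnip3l. They were chosen by gene symbol from a table of 23337 genes, and all 9 symbols were found there. They were measured by RNA sequencing in heart muscle cells (cardiomyocytes) of wild-type mice. Adeno-associated virus of serotype AAV9 was given on postnatal day 1 at 5e+08 viral genomes per gram, and the cells were sorted on postnatal day 14. Each group had 5 libraries from separate biological replicates, per the design text. The control group received the vector AAV9-cTNT-GFP, and the other group received AAV9-cTNT-dnMKL1-GFP, so that both groups carried virus and GFP. cTNT is the cardiac troponin T promoter, which limits expression of the vector to cardiomyocytes. MKL1, also called MRTF-A, is a coactivator of serum response factor (SRF), and dnMKL1 is its dominant-negative form, which interferes with the normal protein.

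Mitochondria fuse and divide continuously. MFN1 and MFN2 are GTPases that join outer membranes, OPA1 joins inner membranes and shapes the cristae, and DRP1 (the product of Dnm1l) is the GTPase that constricts a mitochondrion after adaptors such as MFF and FIS1 have brought it to the surface. In mitophagy, damaged mitochondria are handed to autophagosomes, either after the kinase PINK1 has marked them with phosphorylated ubiquitin or through receptors in the outer membrane such as FUNDC1 and NIX (the product of Bnip3l). In heart muscle these proteins are known for the maturation and upkeep of the densely packed mitochondria that supply contraction.

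The fusion genes had the lowest fold changes of the 9 genes, so the DNA just upstream of their start sites is shown, beside that of Fis1, which did not pass the test. Each sequence is the 250 bases before the most upstream start of the gene in RefSeq (build GRCm38.p6), read 5′ to 3′ on the gene's strand. Capitals mark a match to 1 of the motifs searched.
Mfn1 (chr3:32529232-32529481, plus strand): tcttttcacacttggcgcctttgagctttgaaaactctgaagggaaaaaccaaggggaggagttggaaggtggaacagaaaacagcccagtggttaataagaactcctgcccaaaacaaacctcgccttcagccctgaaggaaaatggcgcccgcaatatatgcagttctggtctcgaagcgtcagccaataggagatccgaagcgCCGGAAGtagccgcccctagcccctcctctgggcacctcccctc
Mfn2 (chr4:147904910-147905159, minus strand): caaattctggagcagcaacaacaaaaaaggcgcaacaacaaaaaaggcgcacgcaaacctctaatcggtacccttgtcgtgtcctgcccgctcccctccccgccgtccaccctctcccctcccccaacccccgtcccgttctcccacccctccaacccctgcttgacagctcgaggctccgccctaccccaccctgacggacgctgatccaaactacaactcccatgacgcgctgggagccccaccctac
Opa1 (chr16:29579084-29579333, plus strand): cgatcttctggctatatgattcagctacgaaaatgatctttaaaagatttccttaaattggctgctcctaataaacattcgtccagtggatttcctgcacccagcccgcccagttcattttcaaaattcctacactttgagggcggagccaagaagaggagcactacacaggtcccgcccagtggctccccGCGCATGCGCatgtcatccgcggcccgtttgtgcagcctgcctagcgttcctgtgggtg
Fis1 (chr5:136953025-136953274, plus strand): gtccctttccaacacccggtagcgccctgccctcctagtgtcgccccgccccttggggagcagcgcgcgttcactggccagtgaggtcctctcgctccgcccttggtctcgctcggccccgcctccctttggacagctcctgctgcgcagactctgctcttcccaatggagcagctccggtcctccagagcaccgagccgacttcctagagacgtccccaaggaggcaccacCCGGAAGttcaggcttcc

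The motifs were searched on both strands, and matches were allowed to overlap. They were the CArG box (bound by SRF), the MEF2 site and AAGGTCA (the half-site of oestrogen-related receptors). The others were the palindromic consensus of NRF1, a regulator of mitochondrial genes, then CCGGAAG (the core bound by ETS factors such as GABP) and CACGTG (an E-box). Of the 9 genes, 8 had a start in the RefSeq table. CCGGAAG lay 44 to 38 bases before the start of Mfn1 and 18 to 12 bases before that of Fis1. The NRF1 consensus lay 59 to 50 bases before the start of Opa1 and 10 to 1 bases before that of Pink1. The windows of Mfn2, Dnm1l, Mff and Fundc1 held none of these letters, and the Fundc1 start in RefSeq lies 318 bases inside the start in GENCODE. Among 32851 windows of this length, 6.91% held CCGGAAG, 3.74% held the NRF1 consensus and 1.47% held a CArG box, a motif with 0 matches in the 8 windows. AAGGTCA was held by 4.08% of windows, CACGTG by 6.02% and the MEF2 site by 0.508%, again with 0 matches in the 8. These shares cover every start in RefSeq, and the windows behind them are not matched to the 8 in base content. The median window held 6 CG dinucleotides, against 8 to 18 in the 8 windows. CCGGAAG and the NRF1 consensus both contain CG. The 3 fusion genes thus shared no match among these motifs in the windows searched, and Mfn1 and Fis1 both held CCGGAAG. Each window belongs to 1 start. Mfn2 has 3 starts in RefSeq, and the start used lies 205 bases from that in GENCODE. A part of these motifs in the fold changes was not tested.

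The table analysed here is the authors' own DESeq2 comparison of the 2 groups and holds no value for a single library. A level is therefore its base mean, the average over all 10 libraries of counts divided by size factors, or the implied mean of a group, which follows from that average and the ratio of the groups. The spread between libraries enters through the standard error (SE) of the log2 fold change, and a gene is called higher or lower when its Benjamini-Hochberg adjusted Wald p-value in the authors' deposited table was under 0.05. Library totals estimated from recovered size factors were 8803028 to 17123588 counts with GFP and 8835136 to 17228619 with dnMKL1. The direction was read from Mkl1, the source of the vector's insert, which the authors' deposited table lists at a log2 fold change of 9.80 (SE 0.15). Of 14056 genes with an adjusted p-value there, 17.4% were lower and 16.6% higher in dnMKL1 libraries, with a median log2 fold change of 0.021. The fold changes depend on scaling: the implied means summed to less in the dnMKL1 group, and setting both totals equal would raise every log2 fold change by 0.29. For calls under equal totals this shift was added and the deposited SE was kept. The Wald p-values were then recalculated and adjusted here, without a new fit.

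Of the 9 genes, 7 were lower and 1 was higher in dnMKL1 libraries, and Fis1 did not pass the test. That compares with 34.1% called in either direction among all genes, and the median log2 fold change of the 9 genes was -0.36. The 3 fusion genes were all lower, as were Dnm1l and Mff among 3 fission genes and Pink1 and Fundc1 among 3 mitophagy genes. Bnip3l was the gene that was higher. Under equal totals, 3 of the 9 were lower (the fusion genes) and 2 were higher (Bnip3l and Fis1). At that scaling 6.6% of all genes were lower and 40.4% higher, so the share of higher genes among the 9 was below that of all genes. Shares for genes of like abundance were not calculated at equal totals, for the 9 genes or for the lists below.

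**Figure D1:**
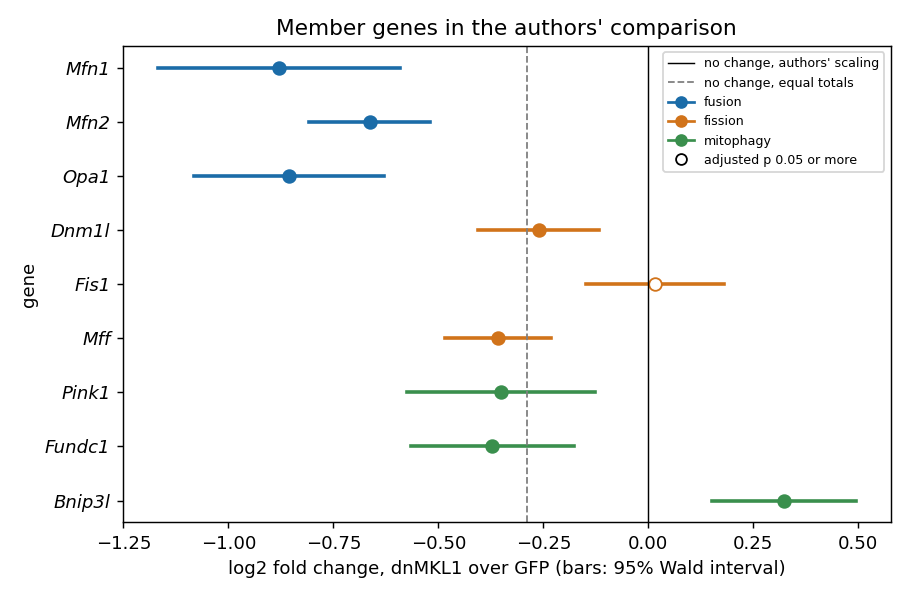
Log2 fold change of each gene, dnMKL1 over GFP, in the authors' deposited table, with 95% Wald intervals as bars and open circles for genes that were not called. The 3 fusion genes lie from -0.88 to -0.66, and the intervals of Mfn1 and Opa1 do not overlap that of any of the other 6 genes; the dashed line marks no change if both groups are scaled to the same total.

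All 3 fusion genes were lower in dnMKL1 libraries, and Mfn1 fell by 45.6%, Opa1 fell by 44.8% and Mfn2 fell by 36.8%, with log2 fold changes from -0.88 to -0.66 and a median of -0.86. Mfn2, the mitofusin that also tethers mitochondria to the sarcoplasmic reticulum, was the most abundant of the 9 genes. Its implied mean was 23292 normalized counts with GFP and 14710 with dnMKL1. The authors' deposited table gave it a log2 fold change of -0.66 (SE 0.07, 95% interval -0.81 to -0.52) and an adjusted p of 1.9e-17. Mfn1, the other mitofusin of the outer membrane, went from an implied mean of 8055 with GFP to 4380 with dnMKL1, the order in which all group means follow. Mfn1 was listed at a log2 fold change of -0.88 (SE 0.15, 95% interval -1.17 to -0.59) in the authors' deposited table, with an adjusted p of 3.9e-08. The SE of Mfn1 corresponds to a coefficient of variation of 16.1% between libraries beyond counting, the largest of the 9 genes, against 8.02% for Mfn2. Opa1, the inner membrane GTPase, went from 4522 to 2498 normalized counts. For Opa1 the authors' deposited table listed a log2 fold change of -0.86 (SE 0.12, 95% interval -1.08 to -0.63) and an adjusted p of 4.3e-12. With both totals set equal the 3 genes were still called lower, at -0.59 for Mfn1, -0.37 for Mfn2 and -0.57 for Opa1.

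The fission genes had smaller fold changes, with a median of -0.26, and their calls depended on the scaling. Mff, the tail-anchored adaptor that recruits DRP1, went from an implied mean of 3993 normalized counts to 3114. The authors' deposited table gave Mff a log2 fold change of -0.36 (SE 0.06, 95% interval -0.49 to -0.23) with an adjusted p of 3.6e-07. Dnm1l, which encodes the fission GTPase itself, went from 3350 to 2796. For Dnm1l the authors' deposited table held a log2 fold change of -0.26 (SE 0.07, 95% interval -0.41 to -0.12), with an adjusted p of 0.0021. Fis1, an outer membrane protein that binds DRP1 and mitophagy regulators, had implied means of 1036 and 1048. The authors' deposited table gave Fis1 a log2 fold change of 0.016 (SE 0.08, adjusted p = 0.917), with a 95% interval of -0.15 to 0.18. That interval overlaps the interval of Dnm1l but not that of Mff. Under equal totals Mff was at -0.071 and no longer called, Dnm1l turned to 0.027 and was not called, and Fis1 was called higher at 0.30.

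The mitophagy genes were called in both directions, with 2 lower and 1 higher. Pink1, the kinase that builds up on damaged mitochondria, was second in abundance among the 9 genes, and its implied mean was 8560 normalized counts with GFP and 6717 with dnMKL1. The authors' deposited table gave Pink1 a log2 fold change of -0.35 (SE 0.11, 95% interval -0.57 to -0.13) and an adjusted p of 0.0089, the weakest call of the 8. Pink1 under equal totals was at -0.062 and not called.

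The 2 receptors of the outer membrane went in opposite directions. Fundc1, a receptor known from hypoxia, went from an implied mean of 526 normalized counts to 407. For Fundc1 the authors' deposited table listed a log2 fold change of -0.37 (SE 0.10, 95% interval -0.57 to -0.18), with an adjusted p of 0.0010. Bnip3l, which encodes the receptor known for clearing mitochondria from maturing red cells, went from 419 to 524. The authors' deposited table gave Bnip3l a log2 fold change of 0.32 (SE 0.09, 95% interval 0.15 to 0.49) and an adjusted p of 0.0011. The intervals of the 2 receptors do not overlap, and this holds under any common scaling of the libraries. Under equal totals Bnip3l was called higher at 0.61, and Fundc1 was at -0.083 and not called. GENCODE lists a processed copy, Bnip3l-ps, that shares 1131 bases with the main Bnip3l transcript at 99.4% identity. How reads were divided between them is not given in the sources used here, so the value of Bnip3l is uncertain to that extent.

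**Figure D2:**
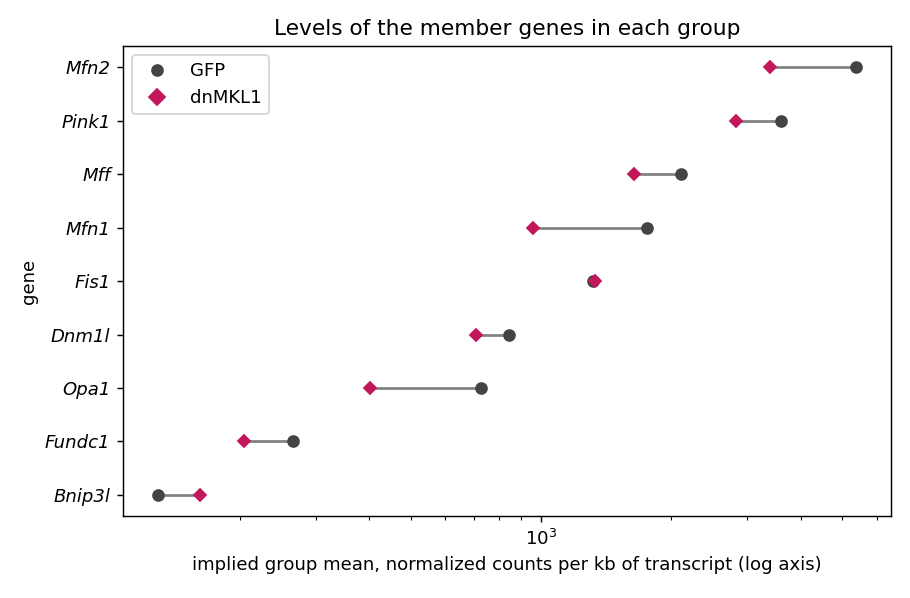
Implied group means of the 9 genes in normalized counts per kb of transcript on a log axis, with circles for the GFP group and diamonds for the dnMKL1 group. Mfn2 falls from 5366 to 3389 and Opa1 from 726 to 401, while the symbols of Fis1 nearly coincide.

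Levels of different genes were compared per kb of the principal GENCODE transcript. Mfn2 had the highest base mean per kb, 4377 normalized counts, followed by Pink1 (3216), Mff (1876), Mfn1 (1363), Fis1 (1326), Dnm1l (775), Opa1 (563), Fundc1 (235) and Bnip3l (146). The relative SE that the fold change implies for such a level ran from 2.23% (Mff) to 5.10% (Mfn1), and Mfn1 and Fis1 are the neighbours that do not differ beyond it. The order also rests on the length used: with the union of all exons Mff moved from rank 3 to rank 7, since its annotated exons add up to 9.76 kb against 1.89 kb in the principal transcript. Per kb, the Opa1 level was 0.859 times that of Dnm1l with GFP and 0.569 times with dnMKL1. The level of Mfn1 was 0.329 times that of Mfn2 with GFP and 0.283 times with dnMKL1. Bnip3l stood at 0.487 times the level of Fundc1 with GFP and 0.788 times with dnMKL1. No test of these ratios was possible, since the table gives no covariance between genes of the same libraries. The fold change intervals of Mfn1 and Opa1 overlap with none of the 6 genes of fission and mitophagy. That of Mfn2 overlaps with those of Pink1 and Fundc1. These intervals come from the same libraries, so their overlap is no test of a difference between genes.

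Lower calls were more frequent among abundant genes, and the 9 genes are read against genes of like abundance. Mfn1, Opa1, Dnm1l, Fis1, Mff and Pink1 had base means from 1000 to 10000. In that class 40.1% of 1986 genes were lower and the median log2 fold change was -0.13, while 5 of these 6 genes were lower. Mfn2 lay above 10000, where 70.7% of 140 genes were lower with a median of -0.60, so that its call is common for its class. Fundc1 and Bnip3l lay between 100 and 1000, with 19.3% of 6515 genes lower and 20% higher. Mff, Dnm1l and Pink1 lay closer to their class median than Mfn1 and Opa1 did.

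**Figure D3:**
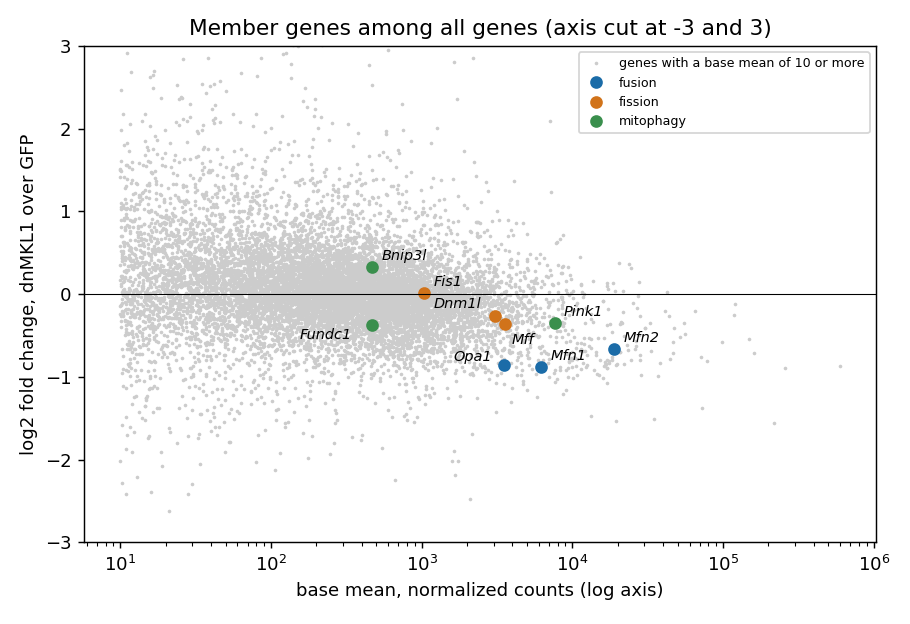
Log2 fold change against base mean on a log axis for all genes whose base mean reached 10 (grey) and for the 9 genes, coloured by role. Genes above 10000 lie mostly below 0, as Mfn2 does at -0.66; Mfn1 at -0.88 and Opa1 at -0.86 lie among lower values than most genes of their base mean.

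Other genes of the same processes were taken from lists chosen for what their products do. Of the cofactors of fusion and the proteases that process OPA1, 10 of 12 were lower and 0 higher, with a median log2 fold change of -0.49. Over all genes 17.4% were lower. Of the 12, 9 had base means from 1000 to 10000, where 40.1% of genes were lower. The strongest calls had log2 fold changes, in the authors' deposited table, of -0.67 (SE 0.07) for Afg3l2, an inner membrane protease subunit, and -0.50 (SE 0.06) for Parl, the rhomboid protease that cleaves PINK1. By the next smallest p-values, the authors' deposited table gave -0.80 (SE 0.10) for Phb, a prohibitin scaffold, and -0.47 (SE 0.07) for Mtch2, an outer membrane protein. Yme1l1 and Oma1, which encode the proteases that cut OPA1, stood at -0.16 (SE 0.09, adjusted p = 0.160) and -0.36 (SE 0.11, adjusted p = 0.0041) in the authors' deposited table, and they were picked for this role after their values had been seen. Under equal totals 6 of the 12 were lower and 1 higher, against 6.6% lower and 40.4% higher of all genes.

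Adaptors and regulators of fission were mixed. Of 12 with a fold change, 6 were lower, 1 was higher and the median was -0.22. Over all genes 17.4% were lower and 16.6% higher. Of the 12, 5 had base means from 1000 to 10000, where 40.1% of genes were lower, and 7 lay below 1000. Mtfp1, an inner membrane protein that promotes fission, had the lowest value, -1.26 (SE 0.16) in the authors' deposited table, where its implied mean goes from 2098 to 878 normalized counts. Lower calls in the authors' deposited table also included Mtfr1, a regulator of fission (-0.48, SE 0.10), Smcr7l, the DRP1 receptor now named Mief1 (-0.46, SE 0.09), and Mul1, an outer membrane ubiquitin ligase (-0.49, SE 0.11). Under equal totals 1 of the 12 was lower and 3 were higher, the latter a smaller share than the 40.4% of all genes.

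Of 14 partners of PINK1 with a fold change, 2 were higher, 2 were lower and the median was -0.028, shares near the 16.6% higher and 17.4% lower of all genes. Optn, the autophagy receptor that binds ubiquitin on mitochondria, was lower at -1.01 (SE 0.12, adjusted p = 1.8e-14) in the authors' deposited table. Sqstm1, which encodes the ubiquitin-binding adaptor p62, was higher in the authors' deposited table at 0.63 (SE 0.17, adjusted p = 0.0011). Its implied mean rose from 6154 to 9555 normalized counts, while that of Optn fell from 1023 to 507. Deubiquitinases that act on mitochondrial ubiquitin differed in direction, with 0.45 (SE 0.13) for Usp30 and -0.22 (SE 0.09) for Usp15 in the authors' deposited table. Calcoco2 was listed at 0. With equal totals 8 of the 14 were higher and 1, Optn, was lower, where 40.4% of all genes were higher by the shift common to every gene.

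Other mitophagy receptors and their regulators were called in both directions, with 3 of 11 higher, 3 lower and a median of 0.16. The shares over all genes were 16.6% higher and 17.4% lower. Fundc2, the paralog of Fundc1, had -0.43 (SE 0.10) and the receptor gene Bcl2l13 had -0.36 (SE 0.09) in the authors' deposited table, both lower. Gbas, now named Nipsnap2, was lower at -0.80 (SE 0.11) in the authors' deposited table. Src, the tyrosine kinase that phosphorylates FUNDC1, was higher at 2.12 (SE 0.35) in the authors' deposited table, from an implied mean of 16.0 to 69.7 normalized counts. Bnip3, the paralog of Bnip3l, is named here after its value was seen: the authors' deposited table gave 0.26 (SE 0.12, adjusted p = 0.0742). Of the 5 ATG8 family genes, whose products tie receptors to the autophagosome, Map1lc3b was lower at -0.16 (SE 0.07) and Gabarapl1 higher at 0.40 (SE 0.16) in the authors' deposited table, with adjusted p-values of 0.0386 and 0.0460. Under equal totals the receptor list had 1 lower and 5 higher genes of 11, near the 40.4% higher of all genes, and the ATG8 list 0 lower and 3 higher of 5.

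**Figure D4:**
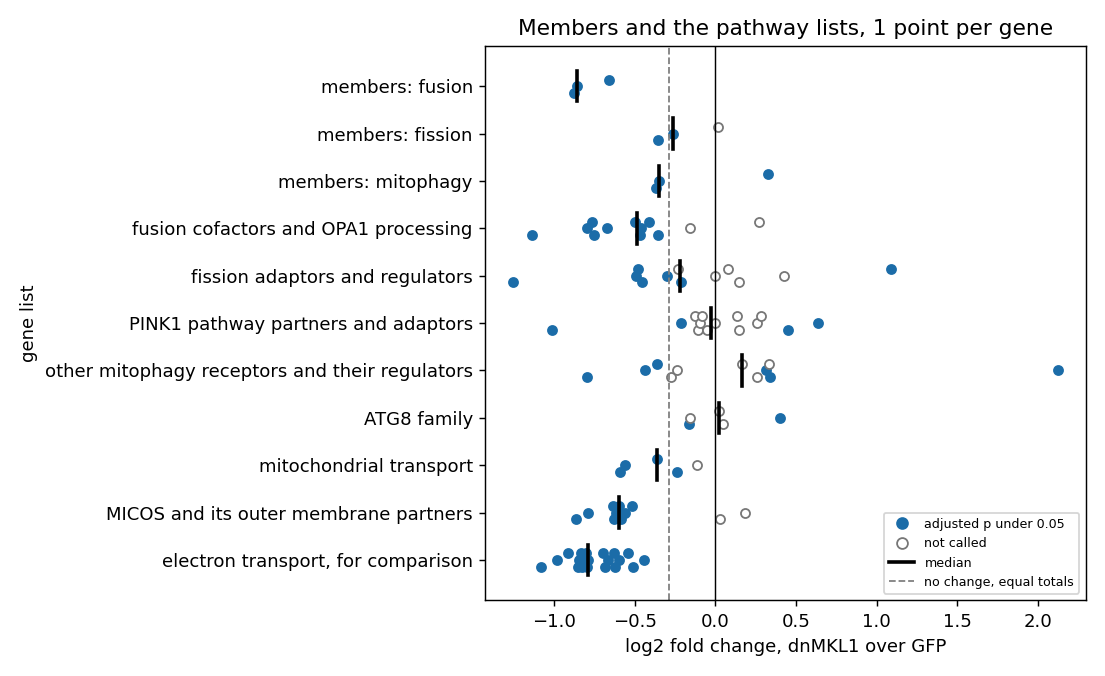
Log2 fold change of each gene in the authors' deposited table, by role and by pathway list, with filled points for called genes and black bars for medians. Medians run from -0.86 for the fusion genes and -0.79 for electron transport to 0.16 for other mitophagy receptors; the dashed line marks no change under equal totals.

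Genes that move mitochondria or fold their membranes were mostly lower, as the fusion genes were. Among the adaptors and GTPases that carry mitochondria along microtubules, 4 of 5 were lower, 0 higher, with -0.36 as the median. Over all genes 17.4% were lower, and all 5 had base means from 1000 to 10000, where 40.1% were lower. In the authors' deposited table the values were -0.59 (SE 0.11) for Rhot2 and -0.24 (SE 0.06) for Rhot1, the MIRO GTPases, and -0.56 (SE 0.08) for Trak1 and -0.36 (SE 0.11) for Trak2, their motor adaptors. Of 11 genes of MICOS, the complex that holds crista junctions and works with OPA1, and of its outer membrane partners, 9 were lower and 0 higher, with a median of -0.60. Of these 11, 1 lay above a base mean of 10000, 6 in the class with 40.1% lower and 4 below 1000. Immt, the core subunit of MICOS, was lower in the authors' deposited table at -0.86 (SE 0.10), and Apool, another subunit, at -0.79 (SE 0.11). The authors' deposited table gave -0.62 (SE 0.09) for Mtx2 and -0.59 (SE 0.09) for Dnajc11, which belong to the outer membrane side. Electron transport genes, set beside these for comparison, were lower in 20 of 20 cases, with a median of -0.79 and a range from -1.08 to -0.45. Of them 16 had base means above 10000, the class in which 70.7% of genes were lower with a median of -0.60. The fusion genes, from -0.88 to -0.66, lay inside that range, and the fission and mitophagy genes lay above it. Under equal totals 2 transport genes, 8 MICOS genes and 18 electron transport genes were lower, with 2 MICOS genes higher. At that scaling 6.6% of all genes were lower and 40.4% higher, with no share calculated for genes of like abundance.

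Markers of the sorted cells were read beside these values, since in bulk RNA fewer cells of a type and less RNA per cell cannot be told apart. The implied means of 8 cardiomyocyte markers, Myh6 the highest, summed to 1173360 normalized counts with GFP and 726705 with dnMKL1, with 5 of 8 lower and 0 higher. All 8 lay above a base mean of 10000, where 70.7% of genes were lower. Myh6 alone went from 768373 to 421599, and the other 7 summed to 404985 and 305106. Summed levels of the other cell types were far smaller. Endothelial markers summed to 2832 and 2924 with 0 of 8 called (0 at an unadjusted p under 0.05 by the same Wald test), and fibroblast markers to 3539 and 4913 with 3 of 8 higher. Mural markers summed to 1422 and 3100 with 2 of 6 higher, of which Cspg4 had a log2 fold change of 2.01 (SE 0.18) in the authors' deposited table. Without Cspg4 the other 5 mural markers summed to 922 and 1080. Macrophage markers summed to 150 and 135 with 1 of 8 higher. Over all genes 16.6% were higher, as were 20% of those with base means from 100 to 1000. Of 6 erythroid markers, 4 were in the authors' deposited table, with Hba-a1 and Hba-a2 listed at 0. Alas2 and Slc4a1 were detected at base means of 6.87 and 1.45 and were not called. The part of these levels in the fold changes of the 9 genes was not tested.

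The annotation of the 9 genes bears on how their reads could be counted. In GENCODE on GRCm38, which is the build mm10 of the submitters' processing notes, none of the exons of Mfn1, Mfn2, Opa1, Fis1, Fundc1 or Bnip3l overlaps an exon of another gene. Exons of Dnm1l (chr16:16312230-16358959) share 243 bases with an antisense gene, and those of Mff (chr1:82724890-82752394) share 195 bases with a transcript on the opposite strand. Exons of Pink1 (chr4:138313409-138326307) contain 2 annotated microRNAs of 110 and 69 bases. Whether counting used strand is not given in the sources used here. The remaining genes lie at chr3:32529465-32579239 (Mfn1), chr4:147873599-147904704 (Mfn2), chr16:29579334-29654884 (Opa1), chr5:136953275-136966234 (Fis1), chrX:17556564-17572325 (Fundc1) and chr14:66985239-67008877 (Bnip3l).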

How the data were processed

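The 10 libraries of sorted cardiomyocytes, 5 per group by the titles in the labels, were compared. Per the submitters' processing notes the tools were CASAVA 1.8, STAR 2.5.3a and featureCounts of Subread 1.5.2 with build mm10; strand use and annotation are not given in the sources used here. The deposited table has the columns of a DESeq2 result per the file headers. Its base mean is a signal in normalized counts, its fold change and SE are on the log2 scale, its Wald statistic is a score equal to their ratio, and its p-value and adjusted p-value are the authors' own, as deposited. The adjusted p-value covers 14056 genes, the lowest at a base mean of 1.31, all 9 genes described here included.

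Computed here (Python 3.11.15, pandas 2.3.3, scipy 1.17.1) were implied group means, which assume that the base mean averages 2 equal groups, 95% Wald intervals, and size factors, recovered from genes with 1 read in 1 library. The factors belong to no named replicate. The spread between libraries was solved from the SE. A run on simulated data checked only the arithmetic, since the simulated SE came from the same formula. Whether an SE from DESeq2 returns the true spread was not tested. Read totals were calculated from implied means and recovered size factors, and they carry no molecular identifiers. No error was estimated for them. Near-identical copies were sought with blastn over all GENCODE transcripts (at least 95% identity over 200 bases).

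The genes and lists were chosen with earlier results of these data known. A further gene of the set is not reported here. Named were all 9 genes, Mkl1, and in each pathway list the called genes if 4 or fewer, otherwise the 4 with the smallest p-values. For marker lists the plan was to name the genes of highest base mean. That plan was followed only in part, and the endothelial, fibroblast and macrophage lists have no gene named. The electron transport list has none either. Genes without counts were named too. Any other gene is named as chosen after its value was seen. The planned count test by edgeR was not run, since no counts per library were used. Alternatives were other thresholds, adjustments, scalings and filters. For other adjustments and the base mean filter the deposited p-values were adjusted again here. For other scalings p-values were recalculated from the shifted fold change and the deposited SE.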

Additional observations from a re-analysis of the deposited data

How the results depend on the processing

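The 9 genes kept their calls at adjusted p-value thresholds of 0.01 and 0.1, with adjustment over every deposited p-value and with median-centring, 7 lower and 1 higher each time. With a base mean of at least 100 the same held. Equal totals left 5 called genes (3 lower, 2 higher), reversed Dnm1l to 0.027 and gave 4 called fission regulators, 9 PINK1 partners and 2 transport genes, by the shift of 0.29 itself. Asking also for an absolute log2 fold change of 0.5, which fewer genes can pass, left 3 of the 9 genes (the fusion genes), 6 fusion cofactors, 2 fission regulators, 2 PINK1 partners, 2 receptor genes, 0 ATG8 genes, 2 transport genes and 2735 of 4792 genes in all. The ATG8 list had 0 called genes at 0.01 by the authors' DESeq2 values, with 2 at an unadjusted p under 0.05, and 1 with adjustment over every p-value. The level per kb from the union of exons was added after seeing the data. No paired analysis was possible because the table used here has no values per library, and for that reason the fits leaving out each replicate, edgeR and DESeq2 with its own size factors were not run. The weight of any 1 library in these values is therefore unknown. The smallest library holds about 276 reads of Bnip3l, the lowest of the 9 genes.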

Other observations

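Genes that keep and read mitochondrial DNA were described as another group of the organelle, from a list added after the values of the report had been seen. Of 11 such genes with a fold change, 6 were lower and 0 higher, with a median log2 fold change of -0.34, against 17.4% lower over all genes. Tfam, which packages mitochondrial DNA and starts its transcription, had -0.72 (SE 0.10) in the authors' deposited table, and Peo1, the replicative helicase now named Twnk, had -0.58 (SE 0.09). The authors' deposited table gave -0.77 (SE 0.19) for Tfb1m and -0.61 (SE 0.13) for Tfb2m, but -0.038 (SE 0.11, adjusted p = 0.844) for Polg, the DNA polymerase of the organelle, which is named after its value was seen. Adding 0.29 for equal totals puts the median at -0.054.

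Cardiolipin, the lipid of the inner membrane that OPA1 binds, is made and remodelled by the products of 10 genes on another added list. Of these, 3 were lower, 1 was higher and the median was -0.21, or 0.075 under equal totals; 4 of 10 called is close to the 34.1% of all genes. Prelid1, which carries the precursor lipid between the membranes, was the gene that was higher, at 0.83 (SE 0.10, adjusted p = 6.3e-15) in the authors' deposited table. Taz, which encodes the remodelling enzyme tafazzin, was lower at -0.36 (SE 0.09) and Ptpmt1 at -0.51 (SE 0.14) in the authors' deposited table. Pld6, a phospholipase of the outer membrane that uses cardiolipin and is also on the list of fusion cofactors, was lower in the authors' deposited table at -1.14 (SE 0.40, adjusted p = 0.014), from an implied mean of 21.8 to 9.88 normalized counts. Crls1, cardiolipin synthase, is named after its value was seen and had -0.21 with an SE of 0.72 in the authors' deposited table at a base mean of 217, an error larger than its fold change.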
